A study of Homo sapiens with 6 samples.

Results

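Chromosome 16 held 20794 of the 464799 RNA binding sites in 6 PAR-CLIP libraries, 4.47% of all sites. The sites were taken by chromosome alone, on both strands, and were described in bins of 5 Mb and in single windows of 50 kb per strand. The chromosome had been picked because its share of sites was lowest in the library of wild-type (WT) FMR1 isoform 1, so that share, and every comparison with that library, is given as a description and not as a test. PAR-CLIP feeds living cells a photoreactive nucleoside, crosslinks their RNA to protein with ultraviolet light, and sequences the RNA recovered with an immunoprecipitated protein.

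All libraries came from FlpIn T-Rex HEK293 cells, a human embryonic kidney line, each carrying a doxycycline-inducible transgene with a FLAG-HA tag. The transgenes were wild-type FMR1 isoform 1, wild-type FMR1 isoform 7, each isoform with the I304N change, FXR1 and FXR2. Every line had received 1 µg/ml doxycycline and 100 µM 4-thiouridine for 16 h, and 365 nm light. The tagged protein was thus over-expressed from a stable transgene; whether the endogenous proteins were still present is not stated in the labels. Each protein form had 1 library, so no value has a replicate error, no p-value was computed, and any difference between libraries can come from the protein or from the library. Ranges in parentheses are exact intervals at the 95% level (Clopper-Pearson for a share, conditional on the summed count for a ratio) and hold only the error of counting. Library sizes were 121903 sites for WT isoform 1, 78495 for WT isoform 7, 132219 for I304N isoform 1, 88644 for I304N isoform 7, 9017 for FXR1 and 34521 for FXR2.

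FMR1 is the protein lost in fragile X syndrome, and FXR1 and FXR2 are its paralogs. All are RNA-binding proteins of the cytoplasm that associate with polyribosomes and carry KH domains, folds that contact RNA, and I304N is a change in such a domain that was found in a patient with severe disease. Chromosome 16 carries stretches of very high gene density at the tip of its short arm (16p13.3), in 16p11.2 and at the tip of its long arm (16q24), with gene-poor stretches between them. The lists name no gene, and no annotation of their build, hg19, was used. A gene named beside a window below is background knowledge of where that gene lies on hg19; sites were not assigned to genes, exons or untranslated regions. The 12 names were looked up in GENCODE release 29, which is on another build: all 12 lay on chromosome 16, on the strand of their window and in the same order along the chromosome.

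Chromosome 16 held 3819 sites of WT isoform 1, which is 3.13% of that library (3.04 to 3.23). It held 4069 sites or 5.18% of WT isoform 7 (5.03 to 5.34), 6738 or 5.10% of I304N isoform 1 (4.98 to 5.22) and 4407 or 4.97% of I304N isoform 7 (4.83 to 5.12). FXR1 had 294 sites there, 3.26% (2.90 to 3.65), and FXR2 had 1467, 4.25% (4.04 to 4.47). WT isoform 1 and FXR1 were thus the low pair, with overlapping intervals, the other 3 FMR1 libraries were the high group, and FXR2 lay between. Relative to WT isoform 1, the share was 1.65-fold higher in WT isoform 7 (1.58 to 1.73), 1.63-fold in I304N isoform 1 (1.56 to 1.69), 1.59-fold in I304N isoform 7 (1.52 to 1.66), 1.36-fold in FXR2 (1.28 to 1.44) and 1.04-fold in FXR1 (0.921 to 1.17). Among 23 chromosomes, the ratio of the WT isoform 1 share to the mean of the other 3 FMR1 libraries was 0.616 on chromosome 16 and lower only on chromosomes 19, at 0.598, and 22, at 0.608. WT isoform 1 was the lowest of the 4 FMR1 libraries on 7 of the 23.

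The arms were parted at the longest stretch without a site in any library, 11.6 Mb from 34985239 to 46590839, which spans the centromere. The low share of WT isoform 1 lay mainly on the short arm. Short-arm sites made up 1.43% of that library (1.37 to 1.502), compared with 3.10% of WT isoform 7 (2.98 to 3.22), 3.06% of I304N isoform 1 (2.97 to 3.16) and 2.61% of I304N isoform 7 (2.51 to 2.72). FXR1 had 1.38% there (1.15 to 1.64) and FXR2 had 2.49% (2.33 to 2.66). On the long arm the libraries were closer: 1.70% of WT isoform 1 (1.63 to 1.77), 2.08% of WT isoform 7, 2.03% of I304N isoform 1, 2.36% of I304N isoform 7 (2.26 to 2.46), 1.89% of FXR1 and 1.76% of FXR2. The short arm therefore held 45.8% of the chromosome 16 sites of WT isoform 1 (44.2 to 47.4) and 42.2% of those of FXR1 (36.5 to 48.0), but 59.8% in WT isoform 7, 60.1% in I304N isoform 1, 58.6% in FXR2 and 52.5% in I304N isoform 7 (51.0 to 54.0).

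**Figure D1:**
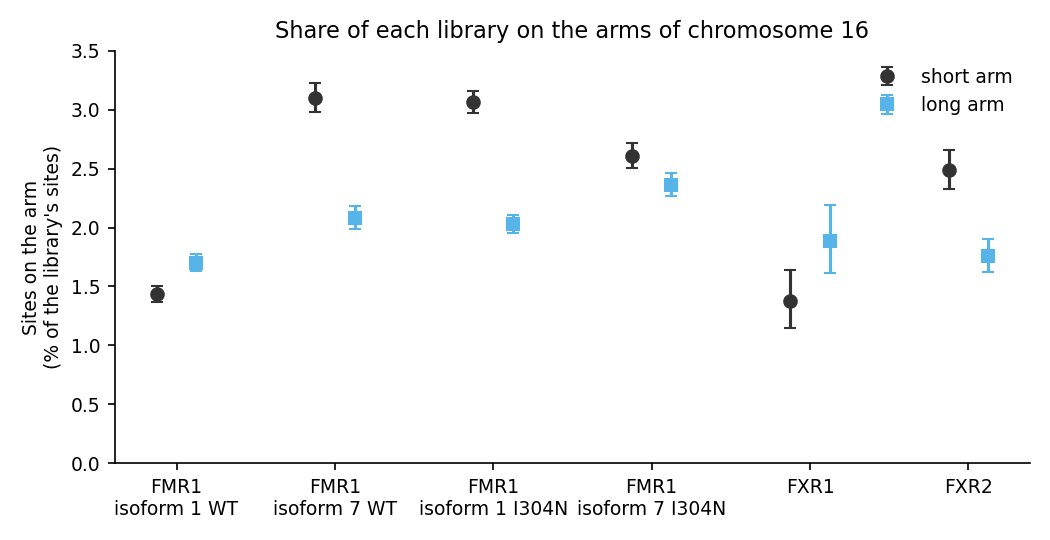
Share of each library's sites on the short and long arm of chromosome 16 (y axis, percent of all sites of the library; bars are exact 95% counting intervals, 1 library per point). Short-arm shares are 1.43% and 1.38% in WT isoform 1 and FXR1 and lie between 2.49% and 3.10% in the other 4 libraries, while long-arm shares span 1.70% to 2.36%.

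Within the arms, the gap between WT isoform 1 and the other FMR1 libraries was concentrated in a few bins; gene density was not measured. The first 5 Mb of the short arm held 411 sites of WT isoform 1, which is 337 per 100000 sites of the library. The same stretch held 848 sites or 1080 per 100000 in WT isoform 7, and 1570 or 1187 per 100000 in I304N isoform 1. I304N isoform 7 had 1060 there, 1196 per 100000. FXR1 had 28 sites there, 311 per 100000, and FXR2 had 296, 857 per 100000. These 5 Mb accounted for 41.9% of the summed difference between WT isoform 1 and the mean of the other 3 FMR1 libraries, the bin from 30 to 35 Mb for 22.0%, that from 85 to 90 Mb for 12.5% and that from 25 to 30 Mb for 10.4%. Together these 4 of the 17 bins with sites made up 86.8% of the difference.

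Outside the 4 bins the shares of the libraries came close to each other: 2.25% of all sites in WT isoform 1 (2.16 to 2.33), 2.26% in I304N isoform 7 (2.17 to 2.36), 2.48% in I304N isoform 1 (2.40 to 2.57), 2.53% in both FXR1 (2.21 to 2.87) and FXR2 (2.37 to 2.70), and 2.76% in WT isoform 7 (2.65 to 2.88). The bins were chosen by this difference, so the closeness outside them is in part set by the choice. WT isoform 1 was the lowest of the 4 FMR1 libraries in 10 of the 17 bins, against 24.1% of the 594 bins of the whole genome, and in 7 of 18 bins when the bins were offset by 2.5 Mb.

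**Figure D2:**
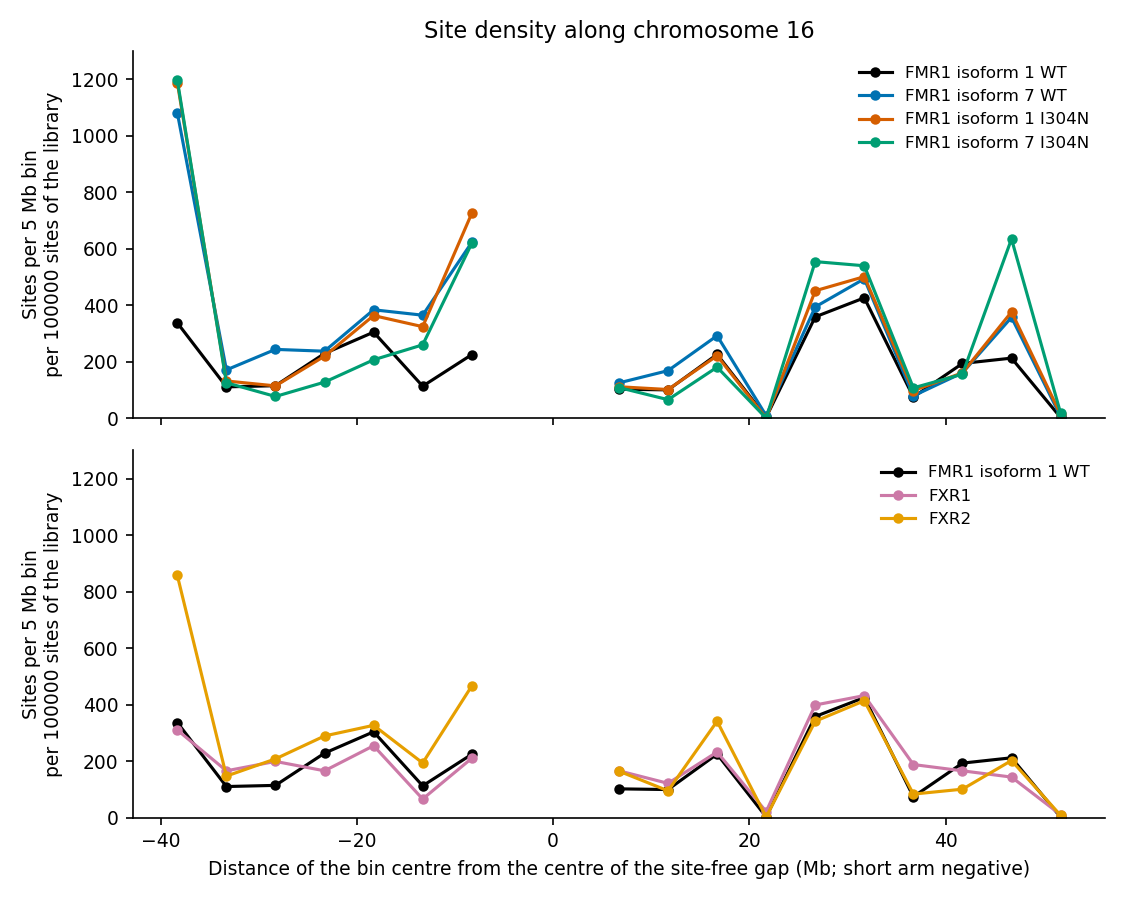
Sites per 5 Mb bin, scaled to 100000 sites of each library (y axis), against the distance of the bin centre from the centre of the site-free gap in Mb (x axis, short arm negative); the upper panel shows the 4 FMR1 libraries and the lower panel WT isoform 1 with FXR1 and FXR2. At the far left, the tip of the short arm, WT isoform 1 and FXR1 stand at 337 and 311 while the other FMR1 libraries stand between 1080 and 1196 and FXR2 at 857.

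The low density at the tip of the short arm was spread over the whole stretch. In steps of 0.5 Mb, WT isoform 1 was the lowest of the 4 FMR1 libraries in 10 of the 10 steps of the first 5 Mb. The first 5 Mb and, below, 30 to 35 Mb were picked for their large difference, which in part sets such counts. The share of such steps over the genome was not computed. The step from 0.5 to 1 Mb was the most extreme, with 5 sites of WT isoform 1 or 4.10 per 100000, while WT isoform 7 had 113 per 100000, I304N isoform 1 had 136 and I304N isoform 7 had 144. From 2 to 2.5 Mb the values were 30.4 per 100000 in WT isoform 1, 181 in WT isoform 7, and 231 and 288 in isoforms 1 and 7 with I304N. The step from 2.5 to 3 Mb, the densest of WT isoform 1 in this stretch, had 90.2 per 100000 against 204, 153 and 214 in the same order. Both strands took part: on the plus strand the first 5 Mb held 189 per 100000 in WT isoform 1 against 591 to 745 in the other FMR1 libraries, and on the minus strand 148 against 451 to 532. Between 30 and 35 Mb, WT isoform 1 was the lowest in 4 of the 8 steps with a site: the first 3 steps and that from 34 to 34.5 Mb, where it had 1 site.

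The stretch from 29.6 to 30.2 Mb is background knowledge for the recurrent 16p11.2 deletion and duplication, a copy number change associated with autism. WT isoform 1 had 58 sites there, 47.6 per 100000. WT isoform 7 had 120, 153 per 100000, I304N isoform 1 had 224, 169 per 100000, and I304N isoform 7 had 153, 173 per 100000. The last 3 libraries were close to each other and 3.21-fold (2.33 to 4.48), 3.56-fold (2.66 to 4.84) and 3.63-fold (2.66 to 4.997) above WT isoform 1. FXR2 had 37 sites, 107 per 100000, and FXR1 had 2 sites. Plus-strand sites outnumbered minus-strand sites in each FMR1 library, with 54 against 4 in WT isoform 1 and 182 against 42 in I304N isoform 1.

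The composition of chromosome 16 by bin was compared between libraries as the share of sites that would have to change bin to turn one library's profile into the other's. This share was 7.33% between WT isoform 7 and I304N isoform 1, 8.06% between WT isoform 7 and FXR2, and 9.78% between the I304N libraries. WT isoform 1 was nearest to FXR1, at 11.4%, and stood 16.99% from FXR2, 19.6% from WT isoform 7, 23.1% from I304N isoform 1 and 26.4% from I304N isoform 7. FXR1 has 294 sites over 17 bins, so counting noise alone raises its values.

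In windows of 50 kb, 816 strand-specific windows of chromosome 16 had a site in any library. WT isoform 1 had a site in 361 of them, WT isoform 7 in 610, I304N isoform 1 in 562, I304N isoform 7 in 440, FXR2 in 284 and FXR1 in 116. WT isoform 7 thus reached the most windows, with fewer sites on the chromosome than either I304N library and more than WT isoform 1. All 6 libraries had a site in 77 windows, and 33 windows had a site of FXR1 or FXR2 and none of FMR1. Neither count was made over the rest of the genome, so both only describe this chromosome. The 10 densest windows of each library held 20.6% of its chromosome 16 sites in WT isoform 1, 17.7% in WT isoform 7, 12.9% in I304N isoform 1, 18.7% in I304N isoform 7, 33.7% in FXR1 and 26.2% in FXR2.

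A window was called when its scaled counts, with a pseudocount of 1, differed at least 2-fold and averaged at least 2 sites per 100000. WT isoform 1 was at least 2-fold below each of the other 3 FMR1 libraries in 117 of 327 windows of chromosome 16, against 17.7% of windows over the genome, and at least 2-fold above each of them in 8, against 11.3%. Of the 117 windows, 53 lay in the first 5 Mb, where 75 were compared, 16 of 27 between 30 and 35 Mb, 7 of 15 between 25 and 30 Mb and 9 of 28 between 85 and 90 Mb. I304N was at least 2-fold above wild type in isoform 1 in 169 of 305 windows (29.9% over the genome) and below it in 18 (20.4% over the genome). WT isoform 7 was at least 2-fold above WT isoform 1 in 124 of 278 windows (21.3% over the genome) and below it in 18 (22.4% over the genome). These 3 comparisons contain the library that the choice of chromosome rests on, so their counts only describe where its low share lies.

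**Figure D3:**
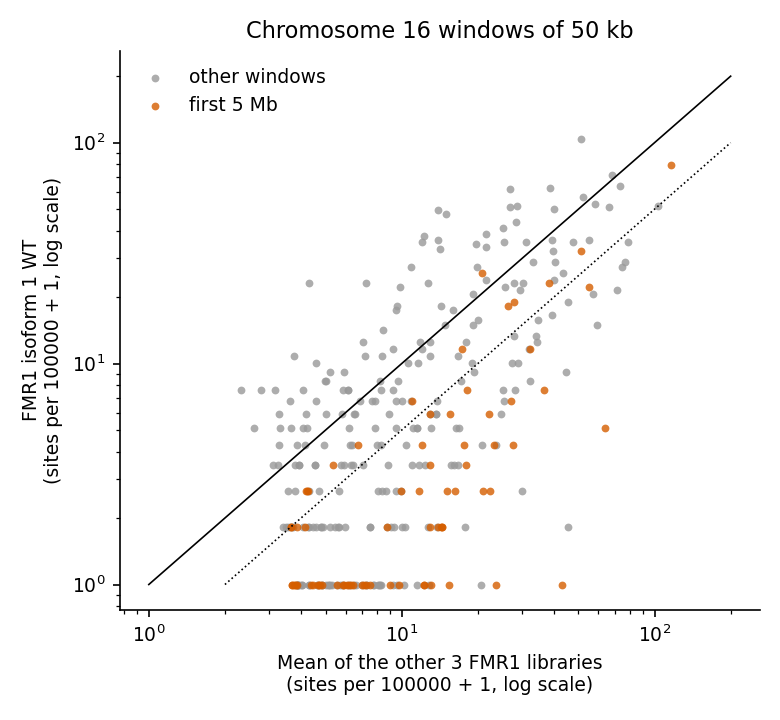
Chromosome 16 windows of 50 kb: sites per 100000 plus 1 in WT isoform 1 (y axis, log scale) against the mean of the other 3 FMR1 libraries (x axis, log scale); the solid line marks equality and the dotted line a 2-fold lower value. Windows of the first 5 Mb fall mostly under the dotted line, and the densest of them, on the far right, lies above it.

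In the FMR1 comparisons without that library, the shares of windows called on chromosome 16 were close to those over the genome. I304N isoform 7 was at least 2-fold above WT isoform 7 in 62 of 328 windows, 18.9% against 21.4% over the genome, and at least 2-fold below it in 68, 20.7% against 20.1%. I304N isoform 7 was at least 2-fold above I304N isoform 1 in 19 of 345 windows, 5.51% against 5.50%, and below it in 58, 16.8% against 16.3%. The median log2 ratios were -0.02 and -0.19, against 0.04 and -0.06 over all windows.

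The densest window over all libraries was on the plus strand from 2800001 to 2850000 (hg19), where background knowledge places SRRM2, a large serine and arginine rich scaffold of nuclear speckles. It held 95 sites in WT isoform 1, 117 in WT isoform 7, 82 in I304N isoform 1, 118 in I304N isoform 7, 18 in FXR1 and 100 in FXR2. Scaled to 100000 sites these are 77.9, 149, 62.0, 133, 200 and 290, so the paralogs were highest and both isoform 1 libraries lowest. With I304N, isoform 7 exceeded isoform 1 by 2.15-fold (1.61 to 2.88). When the sites of a library within 100 nt of each other were counted once, this was log2 0.51. FXR2 exceeded WT isoform 1 by 3.72-fold (2.78 to 4.98) and WT isoform 7 by 1.94-fold (1.47 to 2.56). I304N differed from wild type by less than the counting interval in both isoforms, with ratios of 0.796 (0.585 to 1.08) and 0.893 (0.686 to 1.16).

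Merged regions, formed from touching sites of any library, numbered 10278 on chromosome 16, and 60 of them contained a site of all 6 libraries. The window of SRRM2 held 9 of the 60, including 4 of the 5 longest. The longest ran from 2816446 to 2818042, 1597 nt with 87 sites, followed by stretches of 567 nt and 541 nt. The remaining one of the 5 longest, 268 nt from 9199000 to 9199267 on the plus strand, lay where background knowledge places C16orf72. A window from 70550001 to 70600000 on the plus strand also held 9 of the 60 and was singled out after its values were seen. Background knowledge places SF3B3, a subunit of the splicing factor SF3b, there. Its 38, 38, 40 and 33 sites in the FMR1 libraries (WT isoforms 1 and 7, I304N isoforms 1 and 7) come to between 30.3 and 48.4 per 100000, while FXR1 reached 111 with 10 sites and FXR2 78.2 with 27 sites.

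Other windows among the densest of a library follow. From 30700001 to 30750000 on the plus strand lies SRCAP, the ATPase of a chromatin remodeller. This window had 62 sites in WT isoform 1, 105 in WT isoform 7, 116 in I304N isoform 1, 75 in I304N isoform 7, 4 in FXR1 and 38 in FXR2, and WT isoform 7 was the highest after scaling, at 134 per 100000. I304N was above wild type in isoform 1, 1.72-fold (1.26 to 2.39), and below it in isoform 7, 0.633 (0.464 to 0.859). With the sites of a library within 100 nt of each other counted once, both changed sign, to log2 -0.12 and 0.08. From 30950001 to 31000000 on the plus strand lies SETD1A, a histone methyltransferase. Here the counts were 25, 58, 92 and 59 in the FMR1 libraries in the same order as before, 0 in FXR1 and 18 in FXR2. Scaled, WT isoform 1 was the lowest of the 4, and I304N isoform 1 exceeded it 3.39-fold (2.16 to 5.51), but by log2 0.24 with nearby sites counted once. From 58550001 to 58600000 on the minus strand lies CNOT1, the scaffold of the CCR4-NOT deadenylase. It had 86, 83, 80 and 31 sites in the FMR1 libraries, 8 in FXR1 and 53 in FXR2. Only the I304N isoform 7 library was low there, at 34.97 per 100000 against 60.5 to 106 in the other FMR1 libraries, a ratio of 0.331 to WT isoform 7 (0.212 to 0.505). With nearby sites counted once, the log2 ratio was -0.53 in place of -1.57.

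A few windows went the other way, with WT isoform 1 on top of the FMR1 libraries. On the minus strand from 47100001 to 47150000, the place of NETO2, a partner of kainate receptors, WT isoform 1 had 27 sites and the other FMR1 libraries 3, 5 and 2. FXR1 had 2 and FXR2 had 8, which per site of the library is close to WT isoform 1, with ratios of 1.00 (0.115 to 3.99) and 1.05 (0.411 to 2.37). The plus-strand window from 69300001 to 69350000, for which no gene is named, had 59 sites in WT isoform 1, 12 in WT isoform 7, and 19 and 8 in isoforms 1 and 7 with I304N. FXR1 had 8 sites in it and FXR2 had 6. Per 100000 sites these are 48.4, 15.3, 14.4, 9.02, 88.7 and 17.4, so FXR1 and WT isoform 1 were the highest.

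**Figure D4:**
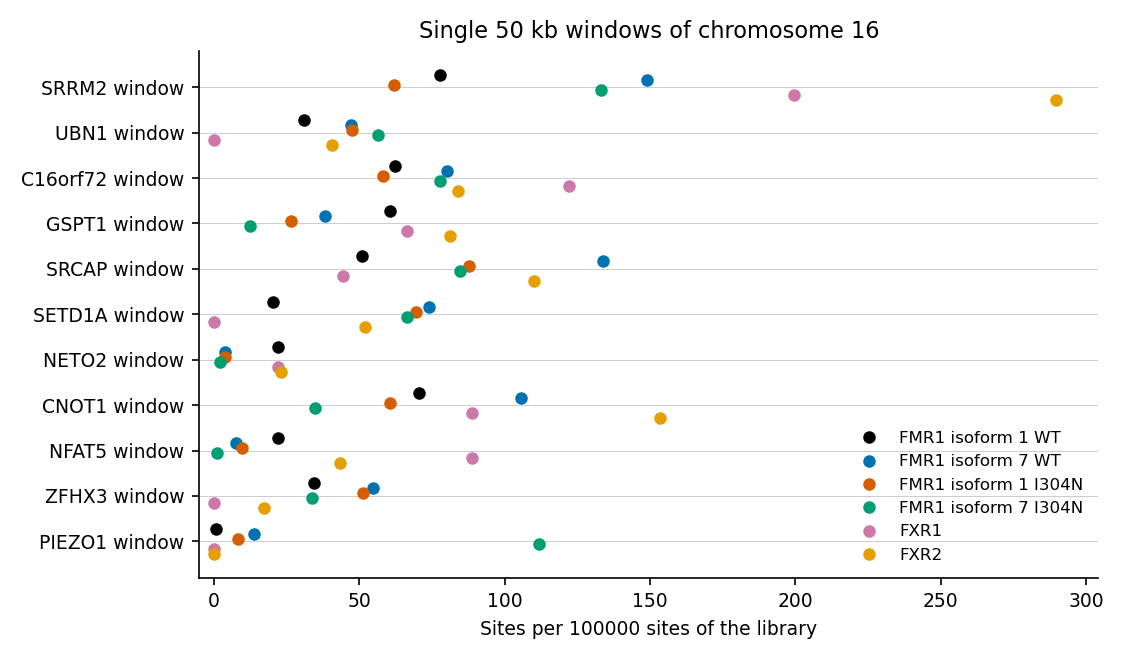
Sites per 100000 sites of the library (x axis) in 11 windows of 50 kb, ordered along the chromosome from the short-arm tip and labelled by the gene that background knowledge places there; each point is 1 library and has no replicate. FXR2 reaches 290 in the SRRM2 window, FXR1 leads in the NFAT5 window at 88.7, and I304N isoform 7 stands alone at 112 in the PIEZO1 window.

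The windows where WT isoform 1 was lowest against all 3 other FMR1 libraries had few or no sites of it at all. On the plus strand from 700001 to 750000 it had 0 sites, whereas WT isoform 7 had 20, I304N isoform 1 had 34 and I304N isoform 7 had 15, and FXR1 and FXR2 had none either. On the plus strand from 2000001 to 2050000 the counts were 0 against 13, 54 and 61, with 0 in FXR1 and 1 in FXR2. With 3 sites in place of 0, I304N isoform 1 was at least 16.6-fold higher there (exact lower limit 13.0) and WT isoform 7 at least 6.73-fold (exact lower limit 4.73). From 600001 to 650000 and from 1800001 to 1850000, both on the plus strand, WT isoform 1 again had 0 sites while the others had 7 to 13. The fifth of these windows, on the plus strand from 30650001 to 30700000, had 2 sites in WT isoform 1 against 22, 45 and 22. FXR1 had 0 sites in all 5. FXR2 had 6 in the last of them, which is 17.4 per 100000 against 1.64 in WT isoform 1, and at most 1 in the others. Background knowledge places several short genes in each of these windows, and no gene is named for them.

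The I304N change was then compared with wild type within each isoform along the chromosome. Over chromosome 16 as a whole the scaled ratio was 1.63 in isoform 1 (1.56 to 1.69) and 0.959 in isoform 7 (0.919 to 1.00). The ratio in isoform 1 was 3.52 in the first 5 Mb (3.16 to 3.94), 2.86 from 25 to 30 Mb (2.35 to 3.49) and 3.22 from 30 to 35 Mb (2.82 to 3.70). Isoform 7 gave 1.11 (1.01 to 1.21), 0.712 (0.596 to 0.850) and 0.994 (0.879 to 1.13) in these bins. Without the SRRM2 window the first 5 Mb gave 4.34 (3.84 to 4.92) in isoform 1 and 1.14 (1.03 to 1.26) in isoform 7. The interval lay above 1 in 8 of the 17 bins for isoform 1 and in 3 for isoform 7, and below 1 in 0 and 8 bins. The 8 bins below 1 in isoform 7 include that from 60 to 65 Mb, with 0 sites against 7. These counts were not made over the bins of the whole genome, so they only describe this chromosome. Those of isoform 1 contain the library that the choice of chromosome rests on.

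Isoform 7 with I304N was low over the middle of the short arm and between 50 and 60 Mb on the long arm. Its ratio to WT isoform 7 was 0.315 from 10 to 15 Mb (0.235 to 0.418), with 68 sites against 191, and 0.389 from 50 to 55 Mb (0.281 to 0.534), with 58 against 132. WT isoform 7 was the highest FMR1 library in both bins, so these ratios also hold its height. From 10 to 15 Mb, WT isoform 7 had 243 per 100000 and I304N isoform 7 had 76.7. WT and I304N isoform 1 had 115 and 114 there. From 50 to 55 Mb the values were 168, 65.4, 100 and 101 in the same order. In the bin from 10 to 15 Mb, much of the height of WT isoform 7 was local. From 12 to 12.5 Mb it had 82.8 per 100000, against 0.820 to 5.29 in the other FMR1 libraries. From 12.5 to 13 Mb it had 38.2, against 0.820 to 3.78. The ratio of the bin without this stretch was not computed. The isoforms moved together at the end of the long arm: from 85 to 90 Mb the ratio was 1.77 in isoform 1 (1.52 to 2.06) and 1.78 in isoform 7 (1.54 to 2.06). Leaving out the window of PIEZO1, described below, gave 1.74 (1.49 to 2.03) and 1.52 (1.31 to 1.78). From 65 to 70 Mb the ratios were 1.26 (1.11 to 1.43) and 1.41 (1.22 to 1.63).

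**Figure D5:**
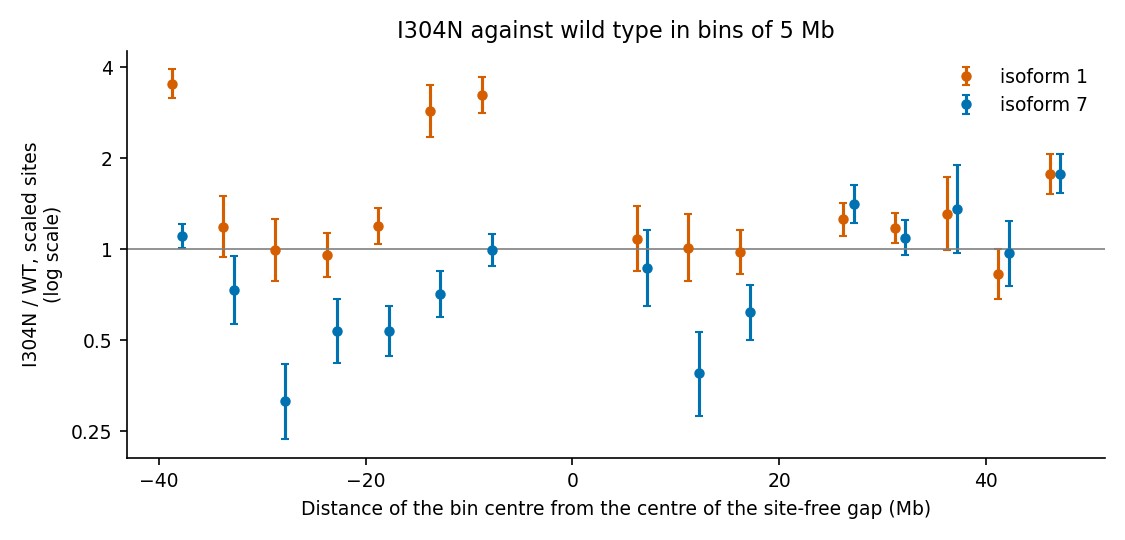
Ratio of scaled sites in I304N to wild type (y axis, log scale; bars are exact 95% counting intervals) in bins of 5 Mb against the distance from the site-free gap (x axis, Mb), for isoform 1 and isoform 7; 2 bins with few sites are left out. Isoform 1 reaches 3.52, 2.86 and 3.22 in 3 short-arm bins where isoform 7 stays between 0.712 and 1.11, and both isoforms stand near 1.77 in the last bin shown.

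Single windows with the same direction in both isoforms were ranked by the smaller of the changes. The first among the gains with I304N was on the minus strand from 67650001 to 67700000, with 9 sites against 0 in isoform 1 and 6 against 0 in isoform 7, opposite to 103 plus-strand sites of the 6 libraries. The exact lower limits of the ratio were 1.82 in isoform 1 and 1.04 in isoform 7. On the minus strand from 87350001 to 87400000 I304N isoform 1 had 19 sites and its wild type 1, a 17.5-fold difference (2.78 to 728). I304N isoform 7 had 16 and its wild type 2, a 7.08-fold difference (1.67 to 63.5). The first among the losses was on the plus strand from 19550001 to 19600000, with 19 sites against 42 in isoform 1 and 3 against 12 in isoform 7. The ratios were 0.417 (0.229 to 0.733) and 0.221 (0.0401 to 0.820). With nearby sites counted once, the log2 ratio in isoform 1 was -0.53 in that window. The third was the window on the minus strand from 11950001 to 12000000, the place of GSPT1, which encodes a translation termination factor. There WT isoform 1 had 74 sites and I304N isoform 1 had 35, a ratio of 0.436 (0.283 to 0.660). WT isoform 7 had 30 and I304N isoform 7 had 11, a ratio of 0.325 (0.147 to 0.667). FXR1 had 6 sites in it and FXR2 had 28. With nearby sites counted once, the log2 ratio in isoform 1 was -0.20. On the plus strand from 69700001 to 69750000, the place of NFAT5, a transcription factor of the osmotic stress response, I304N isoform 1 had 13 sites against 27 and I304N isoform 7 had 1 against 6. The ratios were 0.444 (0.210 to 0.890) and 0.148 (0.00321 to 1.22), so the interval in isoform 7 includes 1. FXR1 had 8 sites there and FXR2 had 15, which was 4.01-fold (1.57 to 9.06) and 1.96-fold (0.970 to 3.82) the density of WT isoform 1.

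I304N isoform 7 stood out in a window on the minus strand from 88800001 to 88850000. Background knowledge places PIEZO1, a mechanically gated ion channel, there. This window had 1 site in WT isoform 1, 11 in WT isoform 7, 11 in I304N isoform 1, 99 in I304N isoform 7 and 0 in FXR1 and FXR2. I304N isoform 7 was thus 7.97-fold above WT isoform 7 (4.27 to 16.5). The 122 sites of all libraries spanned 49594 nt, nearly the whole window, and 6 of them were marked as lying in a repeat. Without this window, the bin from 85 to 90 Mb had a ratio of isoform 7 to isoform 1 of 1.42 with I304N (1.25 to 1.62), against 1.69 with it (1.49 to 1.91). Background knowledge places several genes in a window on the plus strand from 550001 to 600000. It had 5, 37, 58 and 86 sites in WT isoforms 1 and 7 and I304N isoforms 1 and 7. Isoform 7 was 11.5-fold higher in the wild type (4.51 to 37.5) and 2.21-fold higher with I304N (1.57 to 3.14), and with nearby sites counted once the log2 ratios were 2.69 and 0.97.

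The paralogs differed from each other along the chromosome. Of 215 windows compared, FXR1 was at least 2-fold below FXR2 in 112, 52.1% against 39.0% over the genome, and at least 2-fold above it in 62, 28.8% against 32.9%. The median log2 ratio was -1.35, against -0.06 over all windows. A single FXR1 site is worth 11.1 per 100000, so most windows of FXR1 hold 0 sites or at once exceed FXR2, and these counts rest on that step. Compared with the average of the wild-type FMR1 libraries, FXR2 was at least 2-fold higher in 32 of 274 windows, 11.7% against 12.8% over the genome, and at least 2-fold lower in 68, 24.8% against 26.9%. FXR1 was at least 2-fold higher in 63 of 272, 23.2% against 30.8%, and lower in 167, 61.4% against 52.2%. These FXR1 counts rest on the same step of a single site. The average used for FXR1 and FXR2 contains WT isoform 1, the library that the choice of chromosome rests on. The 5 windows highest for FXR1 rested on 1 or 2 of its sites each and are not described.

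The windows lowest for FXR1 had 0 of its sites, so their rank follows the FMR1 count alone. On the minus strand from 18800001 to 18850000 FXR1 had 0 sites, against 60 in WT isoform 1 and 47 in WT isoform 7, at least 1.48-fold and 1.80-fold lower when counted as 3 (exact upper limits of the ratio 0.857 and 0.711). FXR2 had 8 there. FXR1 also had 0 sites in the SETD1A window, in the plus-strand window from 4900001 to 4950000, the place of UBN1, a subunit of a histone chaperone complex, and in the minus-strand window from 72800001 to 72850000, the place of ZFHX3, a zinc finger and homeobox transcription factor. UBN1 had 38, 37, 63 and 50 sites in the FMR1 libraries and ZFHX3 had 42, 43, 68 and 30. FXR2 had 14 and 6 sites in them. The exact upper limit of the FXR1 ratio to WT isoform 1 was 2.15 in the SETD1A window, 1.38 in that of UBN1 and 1.24 in that of ZFHX3, so a lower density of FXR1 than of WT isoform 1 was not detectable there. To WT isoform 7 the limits were 0.572, 0.913 and 0.780.

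Sites were compared position by position, counting an overlap of at least 1 nt on the same strand. Of the WT isoform 1 sites on chromosome 16, 69.05% (67.6 to 70.5) were met by a site of another library, against 57.0% (56.7 to 57.3) on the other chromosomes. In the first 5 Mb the share was 87.8% (84.3 to 90.8), and on the long arm 62.8% (60.6 to 64.9). The sites of this library were thus fewer at the short-arm tip and more often shared there, beside the higher density of the other FMR1 libraries in the same stretch; how far that density sets the share was not tested. The share met by another library was 77.2% in WT isoform 7 on chromosome 16 and 76.7% elsewhere. I304N isoform 1 had 69.1% here and 72.4% elsewhere, and I304N isoform 7 had 80.3% and 81.8%. FXR1 had 85.7% and 86.0%, and FXR2 had 83.8% and 78.6%.

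Between pairs, 57.4% of WT isoform 1 sites on chromosome 16 met I304N isoform 1, while 31.8% of I304N isoform 1 sites met WT isoform 1. On the other chromosomes these shares were 44.2% and 42.2%. WT isoform 7 met I304N isoform 7 in 49.0% of its sites and was met in 43.7% of the I304N isoform 7 sites, against 49.8% and 41.8% elsewhere. FXR2 sites met WT isoform 1 in 60.4% (57.8 to 62.9) and I304N isoform 1 in 60.7% (58.2 to 63.2), against 64.6% and 45.5% elsewhere. Of the sites of those libraries, 21.3% and 11.9% met FXR2, against 16.6% and 11.3% elsewhere. FXR1 sites met WT isoform 1 in 65.3% (59.6 to 70.7), I304N isoform 1 in 36.1% and FXR2 in 75.2% (69.8 to 80.0), while 14.9% of FXR2 sites met FXR1. Elsewhere these shares were 70.1%, 27.1%, 74.3% and 19.6% in the same order. Of the 221 FXR1 sites that met FXR2, 121 had both ends identical with an FXR2 site. This count was not made on the other chromosomes, so it only describes this one.

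Merged regions found in the other 3 FMR1 libraries and not in WT isoform 1 made up 7.11% of those on chromosome 16 (6.62 to 7.63), against 4.34% elsewhere (4.26 to 4.43). The corresponding shares for regions missing only from WT isoform 7 were 2.94% and 4.04%, and for those missing only from I304N isoform 7 they were 3.18% and 2.88%. Regions of WT isoform 1 alone made up 11.5% on chromosome 16 (10.9 to 12.1) and 22.3% elsewhere (22.1 to 22.4). Regions with all 4 FMR1 libraries were about as frequent here as elsewhere, 9.26% (8.71 to 9.84) against 9.10% (8.98 to 9.22), and so were those with all 6 libraries, 0.584% (0.446 to 0.751) against 0.605%.

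The width of the sites differed little on average from the rest of the genome. Mean width was 29.2 nt (SD 21.0 across sites) in WT isoform 1 on chromosome 16 and 29.5 nt elsewhere, 24.4 and 23.2 nt in WT isoform 7, 29.4 and 28.0 nt in I304N isoform 1, 28.4 and 28.2 nt in I304N isoform 7, 20.2 and 20.1 nt in FXR1, and 21.0 and 20.8 nt in FXR2. In the first 5 Mb the mean width of WT isoform 1 sites was 33.7 nt (SD 33.4), with a median of 24 nt as on the whole chromosome. Sites of 60 nt or more made up 6.18% of WT isoform 1 here and 6.36% elsewhere, 2.46% and 1.46% of WT isoform 7, 5.98% and 4.79% of I304N isoform 1, and 4.63% and 4.91% of I304N isoform 7. The intervals of this share parted in WT isoform 7 (2.00 to 2.98 here, 1.37 to 1.54 elsewhere). They also parted in I304N isoform 1 (5.43 to 6.57 here, 4.67 to 4.91 elsewhere). FXR1 had 0 of 294, which allows up to 1.02% counted as 3 sites and has an exact upper limit of 1.25%. Sites marked as lying in a repeat had a higher share here in each library, but the intervals parted only in I304N isoform 1: from 3.75% against 2.99% in I304N isoform 1 to 6.10% (5.36 to 6.91) against 5.33% in WT isoform 1 and 8.50% (5.58 to 12.3) against 6.03% in FXR1. The window from 9200001 to 9250000 on the plus strand, the place of C16orf72, held 83 such sites among 325.

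Isolated sites, with no other site of the library within 1000 nt on the strand, had a lower share here in 5 of the 6 libraries, with intervals that overlapped in WT isoform 1 and FXR2 and parted in the others, as in I304N isoform 1 with 11.6% (10.8 to 12.3) against 15.6%. In FXR1 they made up 48.3% (42.5 to 54.2) against 46.1%. The plus strand held 48.4% of WT isoform 1 sites (46.8 to 50.0), against 52.1% elsewhere. In the other 5 libraries it held between 52.4%, in I304N isoform 1, and 55.7%, in FXR2, against 50.9% to 51.6% elsewhere. Without the 5 densest windows of the chromosome, all on the plus strand except that of CNOT1, these shares were 44.2% in WT isoform 1 and 46.1% in FXR1, and 50.4% to 51.5% in the other 4.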

How the data were processed

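The data were lists of PAR-CLIP sites, 1 per library, grouped by the immunoprecipitated protein in the labels. Per the submitters' processing notes, the aligner was Bowtie 0.12.7 and the build hg19. Which program called the sites, at what thresholds and from how many reads is not given in the sources used here. The deposited score is a mark: per the file headers, 1000 is a site outside repeats and 0 a site in a repeat. Every value therefore counts sites, which depend on depth and caller as well as on binding. A share is lowest in precision in FXR1, where the floor of 3 counts among 294 sites is 1.02% and the exact upper limit for 0 sites is 1.25%.

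A site belongs to the bin or window that holds its midpoint. Counts were divided by the size of the library and multiplied by 100000. Chromosome 16, the gene names and the windows were chosen with earlier results of these data known. Windows were named by rank: the 3 densest per library, the 5 highest and 5 lowest per comparison, and the 5 longest regions shared by all libraries; the text gives a selection, and 1 window is not reported here. That rule allowed gene names only from an annotation of hg19; the names given from background knowledge depart from it and were added after the values were seen. Windows ranked by ratio have ratios that are likely too extreme. The planned gene lists need an annotation of hg19 and were not analysed here, and no sequence was read. The interval and window code was tested on simulated data. Python 3.11.15 with scipy 1.17.1 was used. Other settings tried were bin and window sizes, pseudocounts, filters, repeat-marked, wide or mitochondrial sites left out, nearby sites joined, and the overlap rule.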

Additional observations from a re-analysis of the deposited data

Results flagged for a closer look

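Ratios on opposite sides of 1 under the same contrast put the values below here: in the bins, each has an interval that leaves out 1. With 1 library per form, the difference between them was not tested. For I304N against wild type, the scaled ratio over the whole chromosome was 1.63 in isoform 1 and 0.959 in isoform 7, whose interval reaches 1. From 20 to 25 Mb the ratios were 1.19 and 0.538, and from 25 to 30 Mb they were 2.86 and 0.712.

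For isoform 7 against isoform 1, the ratio over the whole chromosome was 1.65 in the wild type and 0.976 with I304N, whose interval includes 1. From 10 to 15 Mb it was 2.12 in the wild type and 0.672 with I304N, from 20 to 25 Mb 1.26 and 0.569, and from 25 to 30 Mb 3.22 and 0.802. The bin from 30 to 35 Mb gave 2.77 and 0.853, that from 50 to 55 Mb 1.68 and 0.646, and that from 55 to 60 Mb 1.29 and 0.817. Leaving out the densest window of a bin, a choice made after seeing the data, gave 3.79 (2.83 to 5.12) and 0.733 (0.524 to 1.01) from 10 to 15 Mb, so the second interval then includes 1. From 20 to 25 Mb the wild-type ratio became 1.13 (0.9496 to 1.35), and from 55 to 60 Mb the ratios became 1.20 (0.960 to 1.497) and 0.908 (0.723 to 1.13), all with intervals that include 1. In the bin from 10 to 15 Mb the window left out was that from 11950001, which is not where WT isoform 7 stood out. WT isoform 7 had 82.8 per 100000 from 12 to 12.5 Mb and 38.2 from 12.5 to 13 Mb, against 0.820 in WT isoform 1 in each. The wild-type ratio without that stretch was not computed. The 2 sets of ratios are built from the same 4 libraries, and WT isoform 1 is the lower term of each first value.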

How the results depend on the processing

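No paired analysis was possible because every group has 1 library. FXR1, with 294 sites on the chromosome, limits every comparison it enters.

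Leaving out the 5 densest windows lowered the chromosome 16 share to 2.78% and 4.69% for WT isoforms 1 and 7, 4.798% and 4.60% for I304N isoforms 1 and 7, 2.71% for FXR1 and 3.59% for FXR2. Leaving out the 4 bins with the largest difference, a choice made after seeing the data, gave 2.27%, 2.83%, 2.55%, 2.33%, 2.55% and 2.57% in the same order. With sites within 100 nt counted once, WT isoform 7 had a share of 4.87% and I304N isoforms 1 and 7 had 4.71% and 4.83%, and with covered nucleotides in place of sites 5.44% was reached by WT isoform 7 and 5.34% by I304N isoform 1. WT isoform 1 stayed the lowest FMR1 library under these 4 settings, but with the 4 bins left out I304N isoform 7 was close to it, at 2.33% against 2.27%.

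With nearby sites counted once, WT isoform 7 had 57.4% of its chromosome 16 sites on the short arm, I304N isoform 1 had 57.6% and FXR2 had 55.9%, and without the densest windows it was 50.5% in I304N isoform 7. The plus-strand share without the densest windows was 44.2%, 50.4%, 50.6%, 51.5%, 46.1% and 51.5% in the order above, and with nearby sites counted once it was 51.6% in I304N isoform 7 and 52.8% in FXR2. When an overlap had to cover 50% of the shorter site or more, the share met by another library was 67.0%, 75.1%, 67.1% and 78.9% in the FMR1 libraries and 81.5% in FXR2.

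Counts of windows past 2-fold moved with the pseudocount and the filter. For I304N against wild type in isoform 1, a pseudocount of 5 left 9 lower windows, no filter gave 259 higher ones and a filter of 4 scaled sites 110. In isoform 7 a pseudocount of 5 left 30 higher windows, no filter gave 120 higher and 286 lower, and the filter of 4 left 42 lower. For isoform 7 against 1 in the wild type, a pseudocount of 5 left 77 higher and 10 lower and no filter gave 389 higher. With I304N the pseudocount of 5 left 9 higher and 24 lower, no filter gave 48 and 105, the filter of 4 left 12 and 31, and windows of 100 kb gave 11 higher. For FXR1 against wild-type FMR1, no filter gave 336 lower and the filter of 4 left 106. For FXR2 a pseudocount of 5 left 6 higher and 36 lower, no filter gave 74 and 196, and the filter of 4 left 19 and 36. FXR1 was lower than FXR2 in 212 windows with no filter and in 74 with the filter of 4. With a pseudocount of 5, WT isoform 1 was below all 3 others in 42 windows and above them in 5.

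Counting nearby sites once reversed 5 log2 ratios that had passed 2-fold. I304N against wild type in isoform 1 became 0.46 in the minus-strand window from 20700001, -0.00447 in the plus-strand window from 30750001 and -0.31 in the minus-strand window from 69150001. Isoform 7 against 1 in the wild type became 0.34 in the window from 20700001 and 0.10 in the minus-strand window from 58150001. Over all settings, 611 values of named windows kept their side of 2-fold, 32 crossed it, and 5 past it reversed. Values under 2-fold can also change sign, as in the SRCAP window. The cause was not tested.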

Other observations

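A window on the plus strand from 12250001 to 12300000 held 17 WT isoform 7 sites and 0 in each of the other 5 libraries, spread over 46867 nt. On the minus strand from 30000001 to 30050000, sites were packed into 3448 nt, with 1 site in each wild-type FMR1 library, 17 in I304N isoform 1, 9 in I304N isoform 7, 1 in FXR1 and 2 in FXR2.

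A window on the plus strand from 33950001 to 34000000, near the site-free gap and singled out after its values were seen, held 5 of the 60 regions shared by all 6 libraries, all between 33963092 and 33965587. It had 28, 21, 21 and 17 sites in WT isoforms 1 and 7 and I304N isoforms 1 and 7, 7 in FXR1 and 11 in FXR2. The authors' repeat mark was on 79 of these 105 sites.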
